A study of Mus musculus with 6 samples.

Results

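Open chromatin was examined at 10 genes of the exocrine acinar programme in sorted mouse β-cells. Expression of these genes was not measured here. The 10 genes, out of 21887 protein-coding genes in all, were chosen by name as acinar markers. No threshold on these peak lists was used, but earlier results of these data were known. They are the chymotrypsinogen gene Ctrb1, the elastase genes Cela1, Cela2a and Cela3b, the carboxypeptidase genes Cpa1 and Cpb1, the lipase genes Pnlip and Cel, and the transcription factor genes Ptf1a and Bhlha15. Each gene was taken as its RefSeq span on mm10 plus 10 kb on each side, termed its window. The windows were compared between 3 libraries of the genotype Chd4KO (knockout) and 3 libraries of the genotype Control. All mice had received tamoxifen, and islets were dispersed and sorted for the red fluorescent protein Tomato. The design text names the knockout mice Chd4Db. The sources used here do not state the driver of the recombinase, the age of the mice or whether each library is a different animal, so p-values measure the spread between these libraries, which may be technical. Chd4 is the helicase of the nucleosome remodeling and deacetylase complex NuRD, and the study asked how its loss changes accessibility in β-cells. Around Ctrb1 and Cela2a more bases lay under peaks in the knockout than in the control, the other 4 genes that could be tested did not pass, and no enzyme gene of the 10 had a peak at its start in either genotype.

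Acinar cells make up most of the exocrine pancreas and secrete digestive enzymes, many of them as inactive zymogens stored in granules. Their enzyme genes are driven by the complex PTF1, in which the basic helix-loop-helix protein PTF1A binds an E-box together with an RBPJ-type protein that binds a nearby second motif. BHLHA15, also called MIST1, is another helix-loop-helix factor, which sets up the secretory machinery of these cells. Acinar and endocrine cells descend from common pancreatic progenitors, and acinar cells surround the islets, so acinar material can accompany islet preparations.

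The gene starts of the 10 genes fell into 2 kinds, which their sequences illustrate. The Bhlha15 promoter was fully covered by peaks in all 6 libraries, whereas the Ctrb1 promoter had no peak in any library although its window held the most regions with a peak in every knockout and no control library. Pnliprp2, which encodes a lipase related to Pnlip and stands outside the 10 genes, is shown with them because a peak covered its promoter in each of the 3 knockout libraries and in none of the controls. It was picked from 30 further acinar promoters after their values were seen. Of all 17492 promoters, 879 had a peak in 1 to 5 libraries, and the share with this pattern was not taken. The sequences are from RefSeq (GRCm38.p6, the assembly that mm10 names), run 5′ to 3′ on the coding strand and span 250 bases before to 50 bases after the gene start. Bhlha15 is at chr5:144190036-144190335 (plus strand), Ctrb1 at chr8:111690961-111691260 (minus strand) and Pnliprp2 at chr19:58759473-58759772 (plus strand). Capitals mark matches on either strand to the E-boxes CAGCTG and CACCTG, to TGGGAA, the RBPJ-type part of the PTF1 site, and to AAGGTCA, the core site of the acinar nuclear receptor NR5A2.
Bhlha15: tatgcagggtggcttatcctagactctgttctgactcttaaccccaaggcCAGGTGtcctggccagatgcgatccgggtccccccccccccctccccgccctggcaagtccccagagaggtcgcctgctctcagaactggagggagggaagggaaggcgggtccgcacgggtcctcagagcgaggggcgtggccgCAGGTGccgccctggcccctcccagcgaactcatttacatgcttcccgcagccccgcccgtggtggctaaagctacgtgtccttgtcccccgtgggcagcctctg
Ctrb1: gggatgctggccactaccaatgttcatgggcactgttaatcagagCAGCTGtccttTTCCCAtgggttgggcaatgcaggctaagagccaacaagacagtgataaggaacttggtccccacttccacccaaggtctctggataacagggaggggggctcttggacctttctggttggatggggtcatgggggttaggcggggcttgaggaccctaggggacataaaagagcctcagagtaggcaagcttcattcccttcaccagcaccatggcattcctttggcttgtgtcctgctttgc
Pnliprp2: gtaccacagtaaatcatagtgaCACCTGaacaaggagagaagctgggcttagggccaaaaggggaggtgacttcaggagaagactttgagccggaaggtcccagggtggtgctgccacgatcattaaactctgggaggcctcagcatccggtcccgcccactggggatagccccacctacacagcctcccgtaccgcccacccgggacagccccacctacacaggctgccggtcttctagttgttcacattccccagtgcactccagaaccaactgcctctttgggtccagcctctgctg

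In the Ctrb1 promoter the match to CAGCTG began at -205 from the gene start and the match to TGGGAA, on the opposite strand, at -194. The Bhlha15 promoter held 2 matches to CACCTG on the opposite strand, at -200 and -55, and the Pnliprp2 promoter 1, at -228. Over the 10 promoters, CAGCTG occurred in 3, CACCTG in 6, TGGGAA in 6 and AAGGTCA in 2. Over 17492 protein-coding promoters of the same length, these motifs occurred in 15.1%, 19.3%, 24.5% and 4.08%. None of these motifs overlapped another in the 10 promoters. A match is a sequence description and not a bound site.

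Of the 10 promoters, 1 had a peak in all 6 libraries and 9 had a peak in none, in either genotype. Of all 17492 promoters, 58.0% had a peak in all 6 libraries and 37.0% in none. Base composition differs between these promoters, so the share was also taken by GC content. Of promoters under 60% GC, 37.9% had a peak in all 6 libraries, and 0 of the 8 enzyme promoters in that band did. Of promoters with 60% GC or more, 89.9% had one. Both transcription factor genes fell in that band, with 66.7% GC at Bhlha15 and 67.3% at Ptf1a. Bhlha15 was covered over all 300 bases in every library, and Ptf1a over none in any library.

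**Figure D1:**
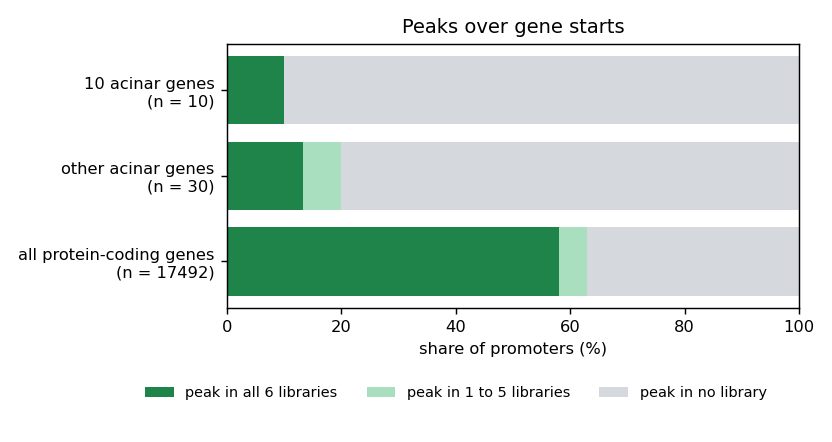
Share of promoters (horizontal axis, %; 250 bases before to 50 after the gene start) with a peak in all 6, in 1 to 5 or in none of the libraries, for the 10 acinar genes, 30 other acinar genes with a RefSeq promoter and all 17492 protein-coding promoters. A peak in all 6 libraries was found at 10.0%, 13.3% and 58.0% of them.

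The peak lists behind these values held 119088 to 124125 peaks in the knockout libraries and 100109 to 110693 in the control libraries. They covered 65.8 to 69.1 Mb in the knockout and 58.0 to 63.8 Mb in the control. The lists give no read counts, so depth is unknown, and a gene without a peak is one where nothing passed the authors' caller, not one shown to be closed. Covered length, the number of bases under peaks in a window, was scaled to the same total in each library. Peaks were joined into regions wherever they overlapped. Regions called in all 3 knockout and no control libraries are termed gained, the reverse lost, and those called in all 6 shared. At Chd4 itself (chromosome 6, 125095980 to 125130591) the knockout libraries had 5079 ± 404 bp covered, against 5692 ± 361 bp in the controls (SD, n = 3 each), which did not pass (log2 fold change -0.16 ± 0.08 SE, limma adjusted p = 0.17). Peaks do not show deleted exons, so this does not check the genotype labels. The β-cell markers were open in all libraries. The summed covered length of 10 of them was 38253 to 39329 bp in knockout and 42801 to 48203 bp in control libraries. Without scaling these sums overlapped, at 39856 to 42669 bp in knockout and 40663 to 43872 bp in control libraries. None of the 10 was without peaks. Limma called 2 of the 10 lower in the knockout and 0 higher, beside 14.6% and 7.57% of all tested genes. The lower ones were Ins1 and Mafa (log2 fold changes -0.62 ± 0.07 and -0.46 ± 0.08, limma adjusted p = 0.0025 and 0.010). Without scaling the adjusted p of Mafa was 0.057.

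The windows of the 10 genes held 27 regions, of which 5 were gained, 0 lost and 8 shared, and 14 were called in other combinations of libraries. Over the genome, 10.3% of 156745 regions were gained, 2.62% lost and 48.0% shared. The 5 gained regions belonged to Ctrb1 (3), Cela2a (1) and Cela3b (1). At least 1 gained region was thus present at 3 of the 10 genes, and the same held for 33.0% of all protein-coding genes, so this share is near the background. At least 1 lost region was present at 0 of the 10 genes and at 13.1% of all genes. Of the 27 regions, 12 were called in knockout libraries alone, 3 in control libraries alone and 12 in both. The single region over a gene start was that of Bhlha15. No gained region overlapped the span of another protein-coding gene, but 6 of the 27 regions did, among them 3 of the 8 shared ones.

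**Figure D2:**
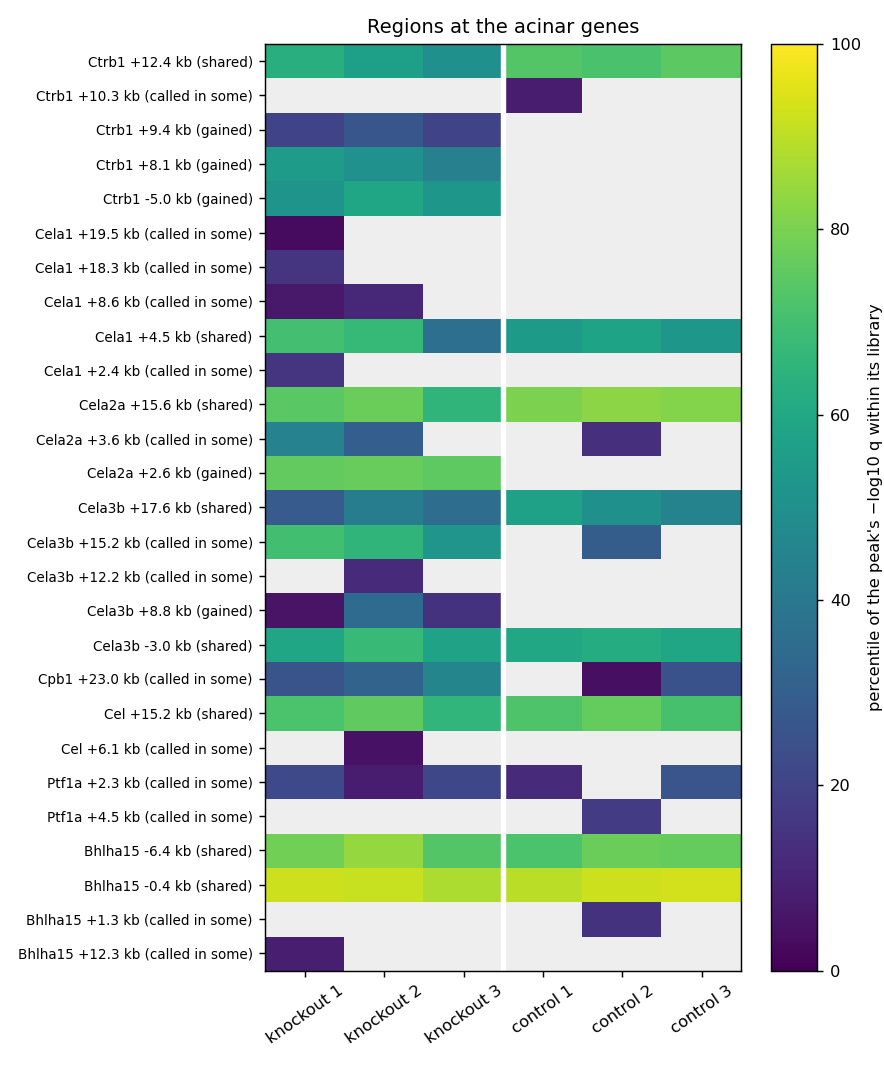
All 27 regions in the windows (rows, with the gene, the start of the region relative to the gene start in kb and its class) in the 3 knockout and 3 control libraries (columns). Colour gives the percentile of the authors' −log10 q of the strongest peak within its own library's list, and grey means no peak. The 5 gained regions are coloured in the knockout columns and grey in all control columns, and the brightest row is the Bhlha15 gene start.

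Ctrb1, the gene of chymotrypsinogen B, a serine protease zymogen of the pancreatic juice (chromosome 8, 111686510 to 111691010, minus strand), showed the largest difference of the 10 genes. Its scaled covered length was 1276, 1467 and 1416 bp in knockout libraries 1 to 3, against 603, 335 and 567 bp in control libraries 1 to 3. Every knockout library lay above every control library. The log2 fold change was 1.09 ± 0.15 SE (limma adjusted p = 0.0041), higher than at 99.1% of 17711 tested genes. All fold changes were taken after adding 300 bp to the covered length, so those of genes with few peaks are understated. In bulk sorted cells, more cells with a region open and a more open region per cell cannot be told apart.

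None of the Ctrb1 regions lay in the gene itself. The upstream gained region (111695479 to 111695975) was 4469 bp from the gene, and its peaks covered 457, 482 and 497 bp in the knockout libraries. Downstream, one gained region (111682572 to 111682869) lay 3641 bp beyond the gene end with peaks of 290, 295 and 294 bp. The other (111681150 to 111681619) lay 4891 bp beyond it with 255, 470 and 339 bp. By the authors' fold enrichment at the summit, the upstream region had 10.7, 13.6 and 9.54, the nearer downstream region 10.9, 9.92 and 7.54, and the farther one 4.68, 5.48 and 4.52. The first 2 thus stood near the middle of the knockout lists by −log10 q, at percentiles of 43.5 to 59.2, and the third lower, at 20.2 to 26.6. The control coverage came from a shared region 7898 bp beyond the gene end (111678091 to 111678612), with 349, 344 and 332 bp in knockout and 349, 335 and 517 bp in control libraries, and from a further peak of 200 bp in control library 1. By −log10 q the shared region stood lower in the knockout lists, at percentiles of 50.3 to 63.0, than in the control lists, at 71.4 to 74.8. Windows with at least 3 gained regions were found for 4.19% of all genes. With 50 kb on each side in place of 10 kb, the log2 fold change of Ctrb1 was 0.15 and did not pass (limma adjusted p = 0.096).

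**Figure D3:**
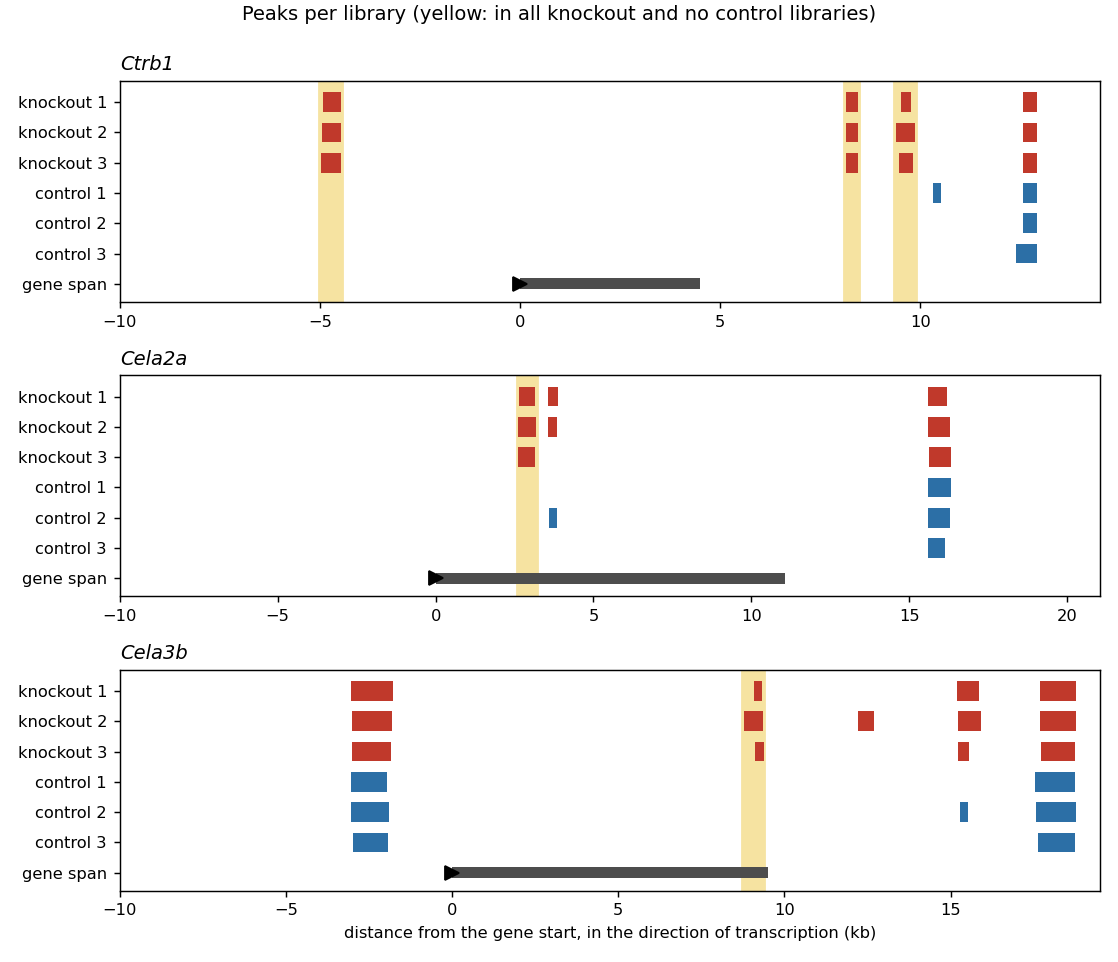
Peaks of each library (bars; knockout red, control blue) in the windows of Ctrb1, Cela2a and Cela3b, by distance from the gene start in kb (horizontal axis, in the direction of transcription; arrowhead, gene start; dark bar, gene span). Yellow marks the gained regions, 3 at Ctrb1 on both sides of the gene, 1 inside Cela2a and 1 inside Cela3b, and no peak lies over any of the 3 gene starts.

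The elastases are serine proteases of the acinar granules, and 1 of the 3 elastase genes passed the test. Cela2a (chromosome 4, 141814954 to 141826005, minus strand) had 1312, 1422 and 1186 bp in the knockout libraries, against 779, 959 and 594 bp in the control libraries. The groups did not overlap, and the log2 fold change was 0.59 ± 0.13 SE (limma adjusted p = 0.022). Its gained region (141822823 to 141823382) lay inside the gene, 2623 to 3182 bp from the gene start. This was the strongest of the 5 gained regions, with peaks of 505, 560 and 536 bp, an authors' fold enrichment of 20.2, 19.9 and 17.3 and percentiles of 75.3 to 76.6 in the knockout lists. A neighboring region inside the gene (141822142 to 141822441) was called in knockout libraries 1 and 2 and in control library 2. Most of the control coverage lay in a shared region inside the adjoining caspase gene Casp9, with 584, 700 and 689 bp in knockout and 709, 697 and 542 bp in control libraries. The call for Cela2a is close to the threshold: the adjusted p was 0.061 without knockout library 1, 0.060 without knockout library 2, 0.055 without control library 1 and 0.055 without control library 3, with log2 fold changes of 0.46 to 0.60.

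Cela3b (chromosome 4, 137421008 to 137430520, minus strand) had 3063, 3710 and 2702 bp in the knockout libraries, against 2510, 2542 and 2403 bp in the control libraries. The groups did not overlap, but the difference did not pass (log2 fold change 0.30 ± 0.10 SE, limma adjusted p = 0.068). It passed when knockout library 3 was left out (0.40, limma adjusted p = 0.027) and when peaks were counted in place of bases (0.51, limma adjusted p = 0.044). Most of its covered length came from a pair of broad shared regions on either side of the gene, of 1273 bp upstream and 1217 bp downstream. The gained region inside the gene (137421142 to 137421735) was weak, with 247, 576 and 260 bp and percentiles of 5.3 to 34.8. A stronger region beyond the gene end (137414597 to 137415315) was called in all 3 knockout libraries, with 651, 693 and 329 bp, and in control library 2 alone among the controls, with 236 bp. This region and the downstream shared region lay nearer to the elastase gene Cela3a (137401554 to 137409791) than to Cela3b. The windows of Cela3a and Cela3b overlap, so both regions also count for Cela3a, a gene of the further acinar list below.

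Cela1 (chromosome 15, 100674422 to 100687920, minus strand) had 1689, 666 and 346 bp in the knockout libraries, against 411, 503 and 482 bp in the control libraries. The groups overlapped, because knockout library 1 was far above all others and knockout library 3 below every control library. The log2 fold change was 0.49 ± 0.36 SE (limma adjusted p = 0.33), and 0.05 without knockout library 1. Its shared region inside the gene (100682928 to 100683436) carried all of the coverage in the control libraries. Knockout library 1 added 4 weak peaks, at percentiles of 2.8 to 15.1 in its list, of which the 2 farthest from the gene start lay inside the neighboring gene Bin2.

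The carboxypeptidase genes had few or no peaks. Cpa1 (chromosome 6, 30639218 to 30645361), the gene of a carboxypeptidase made as a zymogen, had no peak in any library. Cpb1 (chromosome 3, 20249479 to 20275733), the gene of a carboxypeptidase for basic residues, had 333, 390 and 457 bp in the knockout libraries, against 0, 221 and 288 bp in the control libraries. All of it lay in 1 region inside the gene (20252231 to 20252713), which was called in every knockout library and in control libraries 2 and 3. Cpb1 was under the minimum mean covered length of 300 bp and was not tested with the other genes. When all genes were tested, its log2 fold change was 0.62 ± 0.28 SE (limma adjusted p = 0.20).

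Of the lipase genes, Pnlip, the pancreatic triglyceride lipase (chromosome 19, 58670365 to 58681799), likewise had none. Cel, the bile-salt-dependent lipase (chromosome 2, 28555819 to 28563403, minus strand), had 693, 913 and 735 bp in the knockout libraries, against 744, 676 and 544 bp in the control libraries. The groups overlapped (log2 fold change 0.18 ± 0.13 SE, limma adjusted p = 0.33). Its coverage lay in a shared region inside the neighboring gene Ralgds. The single peak within Cel, of 272 bp, was found in knockout library 2 alone.

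Neither transcription factor gene had a gained region or a higher call. Ptf1a, the gene of the E-box-binding protein PTF1A of PTF1 (chromosome 2, 19445663 to 19447501, plus strand), had 297, 184 and 361 bp in the knockout libraries, against 249, 253 and 447 bp in the control libraries. The groups overlapped, and no peak lay over the gene. A weak region 478 bp beyond the gene end (19447979 to 19448454) was called in 3 knockout and 2 control libraries, at percentiles of 8.0 to 22.2 and 12.1 to 26.4 within their lists, and control library 2 had a peak of 253 bp farther downstream. Ptf1a was also under the minimum, and its log2 fold change with all genes tested was -0.08 ± 0.18 SE (limma adjusted p = 0.89). Bhlha15 (chromosome 5, 144190286 to 144194441, plus strand) had 2474, 2139 and 2271 bp in the knockout libraries, against 2634, 2762 and 2554 bp in the control libraries. Every knockout value lay below every control value, but the difference did not pass (log2 fold change -0.19 ± 0.07 SE, limma adjusted p = 0.088), and it was -0.03 without scaling. The region over the Bhlha15 start (144189863 to 144191085) was covered over 1187, 1178 and 1186 bp in knockout and 1208, 1188 and 1158 bp in control libraries. It was the strongest of the 27 regions in every library, at percentiles of 87.5 to 92.2 in the knockout and 89.5 to 93.1 in the control lists. The other shared region of Bhlha15 lay inside the neighboring kinase gene Lmtk2.

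**Figure D4:**
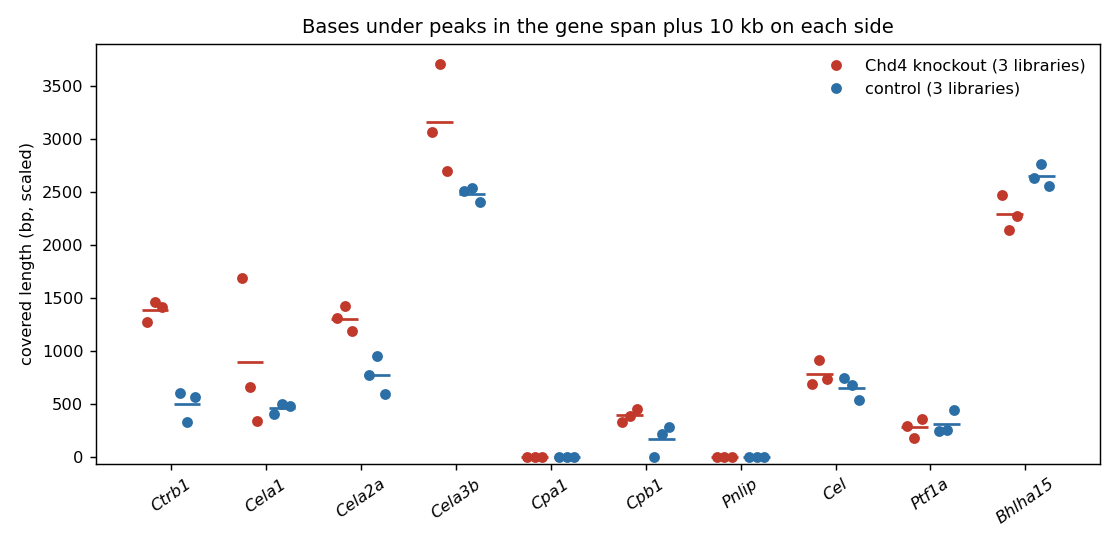
Scaled covered length in bp (vertical axis) of the 10 acinar genes in each of 3 knockout (red, left of each pair) and 3 control libraries (blue); short lines are group means. The knockout points lie above all control points at Ctrb1, Cela2a, Cela3b and Cpb1 and below them at Bhlha15, and Cpa1 and Pnlip are at 0 in every library.

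Of the 10 genes, 6 reached the minimum and were tested, and limma called 2 higher in the knockout and 0 lower (3 and 1 at an unadjusted p under 0.05). Of all 17711 tested genes, 7.57% were higher and 14.6% lower. All 6 also reached the minimum in the control libraries alone, with mean unscaled lengths of 439 to 2498 bp. With no minimum, 1 of the 10 genes passed as higher, Ctrb1 (limma adjusted p = 0.020), and Cela2a did not (limma adjusted p = 0.061). The median log2 fold change of the 6 genes was 0.40, and that of all tested genes -0.09 (0.53 and 0.06 without scaling). Every knockout library was above every control library at 3 of the 6 tested genes, as at 13.1% of all tested genes. The reverse held at 1 of the 6, as at 32.7% of all tested genes. Without scaling, the same 2 genes passed (Ctrb1 1.21 and Cela2a 0.72, limma adjusted p = 0.0037 and 0.027) while 14.6% of all genes were higher and 2.88% lower. The 10 genes were chosen with earlier results of these data known, so these shares are description and not separate support.

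Summed over the 10 windows, the knockout libraries 1 to 3 held 22, 20 and 16 peaks, and the control libraries 10, 13 and 10. The ratio of the group means was 1.76, beside 1.17 for all peaks of the lists. Scaled covered length summed to 10500 ± 898 bp in knockout and 8019 ± 201 bp in control libraries (SD, n = 3 each), a ratio of 1.31. No test was made of these sums, because the genes were chosen with earlier results of these data known. When each list was limited to its 50000 strongest peaks, the sums were 5537 bp in knockout and 5982 bp in control libraries, and of the 5 gained regions that of Cela2a remained.

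The wider acinar programme was read from a further list. Of 42 further genes listed for this comparison, 41 were protein-coding in the annotation, 21 reached the minimum, and limma called 0 higher in the knockout and 2 lower (3 and 5 at an unadjusted p under 0.05). Of all 17711 tested genes, 7.57% were higher and 14.6% lower (2145 and 4916 genes at an unadjusted p under 0.05). Without scaling, 4 of the list were higher (Pla2g1b, Pnliprp2, Rnase1 and Sycn) and 1 lower (Erp27), beside 14.6% and 2.88% of all tested genes. The median log2 fold change of the 21 genes was -0.03, beside -0.09 for all tested genes (0.13 and 0.06 without scaling). The lower genes were Erp27, an endoplasmic reticulum protein of the disulfide isomerase family, and Xbp1, a transcription factor of the unfolded protein response. Erp27 had 1020, 1385 and 1218 bp in the knockout libraries, against 2017, 2042 and 1926 bp in the control libraries (log2 fold change -0.61 ± 0.10 SE, limma adjusted p = 0.0070). This call was lost with 5 kb windows (limma adjusted p = 0.083) and with the 50000 strongest peaks (limma adjusted p = 0.14). Xbp1 had 2857, 2843 and 2787 bp in knockout libraries, against 3577, 3634 and 3411 bp in control libraries. Its log2 fold change was -0.30 ± 0.06 SE (limma adjusted p = 0.013), but -0.14 without scaling (limma adjusted p = 0.21). It was also lost with a −log10 q of at least 5, with 50 kb windows and with the 50000 strongest peaks (limma adjusted p = 0.059, 0.29 and 0.48). Xbp1 is also used in β-cells.

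**Figure D5:**
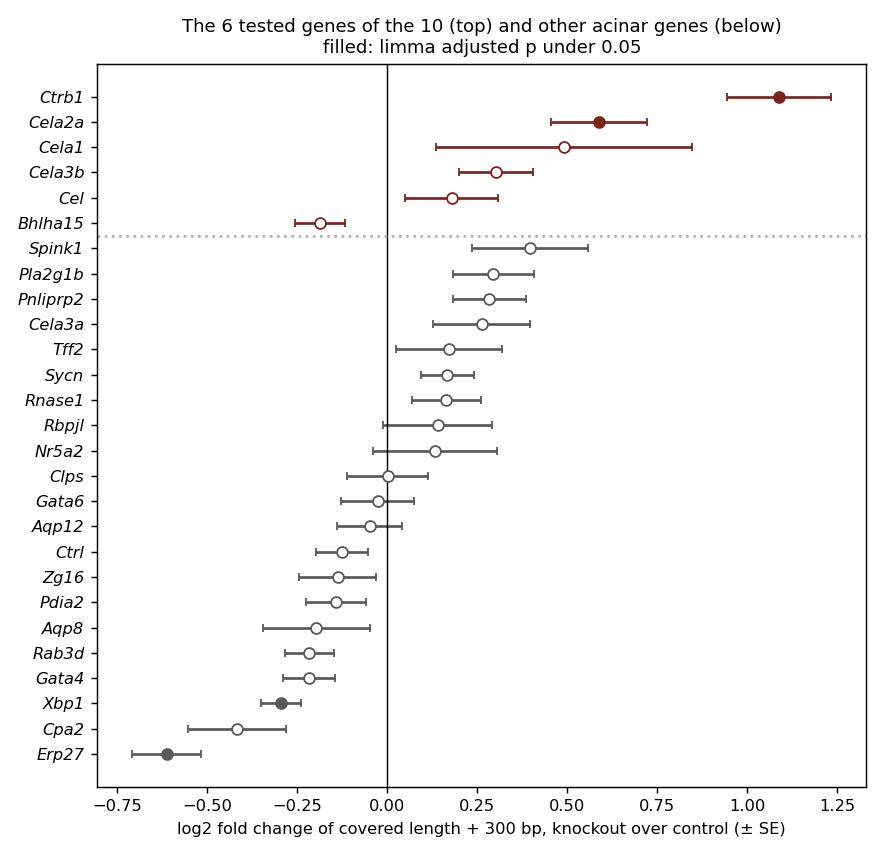
Log2 fold change of covered length + 300 bp, knockout over control, with its SE (horizontal axis) for the 6 tested genes of the 10 and for 21 other acinar genes (n = 3 libraries each). Filled points passed limma's adjusted p under 0.05: Ctrb1 and Cela2a to the right, Xbp1 and Erp27 to the left.

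Among these 41 genes, 8 had a gained region and 2 a lost one, and 14 had no region in any library. Over all protein-coding genes, 33.0% had a gained region, 13.1% a lost one and 15.1% none. At Pnliprp2 (chromosome 19, 58759723 to 58777534) the gained region reached from 346 bp before to 109 bp after the gene start. Its peaks covered 446, 450 and 409 bp in the knockout libraries. The whole window had 753, 758 and 753 bp in the knockout, against 608, 521 and 572 bp in control libraries, and did not pass (log2 fold change 0.28 ± 0.10 SE, limma adjusted p = 0.078), but passed without scaling (0.40, limma adjusted p = 0.018). Serpini2, a pancreatic serpin gene, had 225, 271 and 334 bp in the knockout libraries and no peak in the controls. Cuzd1, the gene of a zymogen granule membrane protein, had 304, 440 and 342 bp in the knockout, against 85.7, 0 and 0 bp in the control. Both were under the minimum, and their gained regions lay inside the genes. When all genes were tested, both passed as higher (limma adjusted p = 0.0042 for Serpini2 and 0.017 for Cuzd1). Serpini2 and Cuzd1 were picked for their gained regions in these same libraries, so these p-values are not separate support. Cckar, another gene of the list with a gained region and no peak in the controls, did not pass in that fit. Its log2 fold change was 1.42 ± 0.36 SE (limma adjusted p = 0.065).

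Acinar signal from other cells was looked for through the same lists. The genes of amylase (Amy1, Amy2a5, Amy2b), trypsinogen (Prss1, Prss3, Try4, Try5, Try10), the lipase-related Pnliprp1, the granule protein gene Gp2 and the genes Reg1, Reg2, Reg3a and Reg3b were listed at 0 bp in every knockout and control library, as were Cpa1 and Pnlip. The trypsinogen gene Prss2 had 1 peak, of 353 bp, in knockout library 1 and none in the other libraries. Amylase, trypsinogen and Reg genes have close copies, where reads can be lost in mapping, and how the authors filtered reads is not stated. The promoters of the 8 enzyme genes among the 10 had no peak in any library. Summed over the 41 genes, scaled covered length was 39008 to 41450 bp in knockout and 39236 to 43036 bp in control libraries. Without scaling these sums did not overlap, at 40288 to 44970 bp in knockout and 35798 to 39322 bp in control libraries. Their ratio was 1.121, beside 1.125 for all bases under peaks in the genome. Of 8 duct markers, limma called 0 higher and 2 lower (1 and 2 at an unadjusted p under 0.05), beside 7.57% and 14.6% of all tested genes, with sums of 21318 to 24598 bp in knockout and 23927 to 25961 bp in control libraries. Of 4 mesenchymal markers, limma called 2 higher (Pdgfrb and Prrx1), while Col1a1 and Col3a1 had log2 fold changes of 0.07 and -0.09 and did not pass. The 4 summed to 7792 to 8427 bp in knockout and 6102 to 6538 bp in control libraries. None of the 4 endothelial markers was called by limma, with 1 at an unadjusted p under 0.05 (Tek). They summed to 9417 to 10360 bp in knockout and 8436 to 9070 bp in control libraries. Of 4 leukocyte markers, Cd74 was higher (0.50, limma adjusted p = 0.015) and Spi1 lower (-0.39, limma adjusted p = 0.020). The α-cell markers Irx1 and Irx2, 2 of 5, and the δ-cell marker Hhex, 1 of 2, were lower (limma adjusted p = 0.0065, 0.0030 and 0.0027). Beside the counts of each list, 7.57% of all 17711 tested genes were higher and 14.6% lower (2145 and 4916 genes at an unadjusted p under 0.05). Without scaling, limma called 3 mesenchymal, 1 endothelial, 1 duct and 1 leukocyte marker higher, beside 14.6% of all tested genes. It called 2 α-cell, 1 δ-cell and 1 duct marker lower, beside 2.88%. The ratio of summed scaled covered length, knockout over control, was 1.265 for the mesenchymal, 1.13 for the endothelial and 0.934 for the duct list. It was 0.96 for the leukocyte, 0.775 for the α-cell and 0.692 for the δ-cell list. No marker of these lists was without peaks in all libraries, and their part in the result at Ctrb1 and Cela2a was not tested.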

How the data were processed

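ATAC-seq, which reads where Tn5 transposase inserts into open DNA, was done on 3 knockout and 3 control β-cell libraries. The authors deposited 1 narrow peak list per library. The peak names in the deposited files point to MACS2 on shifted cutting sites, with coordinates on mm10, per the submitters' processing notes. The aligner, read filters and MACS2 settings were not given in the sources used here. Each deposited peak carries the authors' score (10 times the −log10 q), fold enrichment as a ratio, −log10 p and −log10 q. They served only to describe peaks and to rank or filter them inside 1 library.

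Gene spans and promoters came from RefSeq (GRCm38.p6), and all 10 genes were matched by symbol. Of the further acinar genes 1 is a pseudogene there and was left out. Covered lengths, scaled to a common total, were fitted as log2(length + 300 bp) for genes averaging at least 300 unscaled bp. The fit used limma 3.58.1 (R 4.3.3, intensity trend, Benjamini-Hochberg adjustment over all 17711 genes, threshold 0.05). It was also run on simulated, normally distributed values. Those values do not model lengths made of called peaks or windows without peaks, so they do not check the fit for such data. Python 3.11.15 and pandas 2.3.3 were used. The rule for naming took the 10 genes, the further acinar genes that passed, and the promoters of the 10 with a peak. Further genes with a gained region, the single cell type markers named, and the Ctrb1 and Pnliprp2 promoters were chosen after their values were seen. The genes and lists were chosen with earlier results of these data known. Alternatives were scaling, windows, peak sets, pseudocounts, filters, overlap, the replicate block and each library left out.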

Additional observations from a re-analysis of the deposited data

How the results depend on the processing

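The higher covered length of Ctrb1 passed under every alternative in which it was tested except the window of 50 kb (0.15, limma adjusted p = 0.096), with log2 fold changes of 0.93 to 1.19 when 1 library was left out, 1.84 with 5 kb and 0.67 with a pseudocount of 1000 bp, against 1.09; it fell under the minimum with the 50000 strongest peaks. For Cela2a the log2 fold change was 0.46 to 0.71 with 1 library left out, 0.59 with no filter on low values (limma adjusted p = 0.061) and 0.52 with peaks counted in place of bases (limma adjusted p = 0.078), and neither passed. With the 50000 strongest peaks Cela1 (-0.40) and Cela3b (-1.01) had the opposite sign, neither passing, and so had the sums over the 10 genes (-445 bp and -0.33 peaks, knockout minus control, in place of 2481 bp and 8.33 peaks). The genes called higher were 1 with the 50000 strongest peaks, 1 with no filter, 1 with 50 kb and 1 to 3 with 1 library left out. Gained regions at the 10 genes numbered 1 with the 50000 strongest peaks, 17 with 50 kb, 4 with an overlap of 50% and 5 to 6 with 1 library left out; lost regions numbered 2 with 50 kb; shared regions numbered 4 with the 50000 strongest peaks, 4 with 5 kb and 53 with 50 kb. The summed difference was 3574 bp without scaling, and 4743 bp and 21.3 peaks with 50 kb. Other acinar genes called higher numbered 3 with the 50000 strongest peaks, 3 with no filter, 4 without scaling, 1 with peaks counted, 1 with a −log10 q of at least 5, 1 with 5 kb, 3 with 50 kb and 0 to 1 with 1 library left out, and 1 was lower without scaling. The cause was not tested, beyond the windows and lists holding other peaks by construction. The share of all tested genes called higher is given here only with scaling (7.57%) and without it (14.6%). The counts of genes called under the other settings therefore have no background beside them.

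Same-numbered knockout and control libraries did not deviate together in every pair (correlations across genes 0.13, 0.093 and -0.027), so the numbers were not taken as pairs. With the replicate number as a block, 2 of the 10 genes were higher and 0 lower (Ctrb1, limma adjusted p = 0.014; Cela2a, limma adjusted p = 0.020), and 3 of the other acinar genes were lower. Knockout library 3 did not correlate best with its own number.

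Depth is unknown, and 3 libraries against 3 limit the precision.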

Other observations

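Farther from the 10 genes, regions specific to the knockout were also present. With 50 kb on each side, the 10 windows held 111 regions, of which 17 were gained (15.3%, beside 10.3% of all regions) and 2 lost (1.8%, beside 2.62%). These counts include the 27 regions of the 10 kb windows, with their 5 gained regions at Ctrb1 (3), Cela2a (1) and Cela3b (1). Counted over the whole wide window, Cela2a and Ctrb1 had 4 gained regions each, Cela1 and Cel 3 each, Cela3b 2 and Bhlha15 1. The lost regions were at Cela1 and Cela3b, 1 each. Cpa1, Cpb1, Pnlip and Ptf1a had 0 gained regions even in the wide window, and Cpb1 had no region besides the 1 inside the gene.

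Within the knockout lists, the 5 gained regions of the 10 genes had a median percentile of −log10 q of 51.7, 50.7 and 43.5 in libraries 1 to 3, and all 16193 gained regions had 35.4, 36.0 and 32.9. The 5 ranged from 5.3 to 76.6, with Cela2a highest and Cela3b lowest.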
